A study of Homo sapiens with 4 samples.

Results

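The 10 genes described here act at the passage from G1 into S phase or in DNA replication: CCND2, CDK6, CCNE1, E2F2, CDC6, MCM6, MCM7, CDC45, POLA1 and RRM2. They were chosen by name, with earlier results of these data known, and they are 10 of the 2770 genes that either deposited table lists. The tables compare human head and neck squamous cell carcinoma (HNSCC) cells given a siRNA against FOSL1 with cells of the same line given a control siRNA. The lines are SCC1 and FaDu, both established HNSCC lines, and the tumour behind FaDu arose in the hypopharynx. Total RNA was sequenced after 48 h of siRNA treatment in 4 groups of 1 library each: SCC1 with FOSL1 siRNA, SCC1 with control siRNA, FaDu with FOSL1 siRNA and FaDu with control siRNA. FOSL1 encodes FRA1, a subunit of the transcription factor AP-1. All 10 genes are in the SCC1 table and 3 of them, CDK6, CCNE1 and CDC45, are in the FaDu table.

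In G1, D-type cyclins such as cyclin D2 bind CDK4 or CDK6, and cyclin E binds CDK2. These kinases phosphorylate the RB protein, which then releases E2F factors, and E2F drives transcription of many replication genes. CDC6 helps to load the MCM2 to MCM7 ring onto origins, CDC45 and GINS turn the ring into the active helicase, DNA polymerase alpha makes the first stretch of each strand, and ribonucleotide reductase makes the deoxynucleotides. Amplification of the cyclin D1 gene is a known feature of head and neck squamous carcinomas.

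Levels are in CPM (a read count scaled by the authors to the effective size of its library), and reads per gene were recovered from the CPM steps. The 4 effective library sizes ran between 10365774 and 13242163 reads. Each fold is the ratio of CPM without a pseudocount, and the interval in parentheses is a 95% exact binomial interval that covers counting error only. No molecular identifiers are named in the sources used here, so reads copied by PCR may not be independent molecules. With 1 library per group no difference has a replicate check, so no test between conditions was made. The target was lower with its siRNA in both lines: FOSL1 had 3.99 CPM with FOSL1 siRNA and 133 CPM with control siRNA in SCC1, and 36.9 CPM with FOSL1 siRNA and 774 CPM with control siRNA in FaDu. Of 14 squamous epithelial markers, 3 were listed in each line, or 21.4%, against 13.8% of the genes that the authors tested in SCC1 and 11.2% in FaDu. In SCC1 CDH1, DSC3 and PERP were higher, and in FaDu KRT17 and TRIM29 were higher and DSC3 was lower, so DSC3 ran opposite ways in the lines. The part of these markers in the results was not tested. Of 14 markers of fibroblasts, leukocytes, endothelium and muscle, 0 were listed in SCC1 and 1 in FaDu. That gene, COL3A1, had 2.22 CPM with FOSL1 siRNA and 7.84 CPM with control siRNA. A marker outside the tables could not be checked. CPM of a whole culture cannot tell fewer cells in S phase from less RNA of these genes in each cell.

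Of the 10 genes, 9 were lower and 1, CCNE1, was higher with FOSL1 siRNA in SCC1. The authors' table lists 13.8% of the 13796 genes that they tested in SCC1, 8.19% as lower and 5.6% as higher. Since the genes were picked by name from the tables, nothing is read from the 10 of 10. CDK6 had the largest fold of the 10, at 4.24-fold lower, and CDC6 the smallest, at 1.89-fold lower. Of the 9 lower genes, 7 were at least 2-fold lower, a size that 7.44% of the tested genes reached. CCNE1, at 2.18-fold, was past the same size on the higher side, where 4.83% of tested genes lay (12.3% on either side). An FDR under 0.05 in the authors' deposited table was given to 3 of the 9, CDK6, E2F2 and POLA1, and not to CCNE1. Of all tested genes 2.21% were lower and 1.57% higher at that FDR, 3.78% in all. No listed gene was closer to 1 than 1.88-fold in either line, so smaller differences could not be seen. The median log2 ratio of all genes listed in SCC1 was -1.05. Setting it to 0 leaves 1 gene at least 1.5-fold lower (CDK6) and 1 at least 1.5-fold higher (CCNE1) among the 10. It also turns the sign of CDC6 and MCM7. Over all 1903 genes listed in SCC1 it leaves 366 lower and 773 higher by that size and turns the sign of 178. That median rests on listed genes only, most of which were lower, so setting it to 0 is not a check of the scaling. It lies at 2.07-fold lower in SCC1 and 2.02-fold lower in FaDu, and a sign that it turns marks a fall smaller than that.

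**Figure D1:**
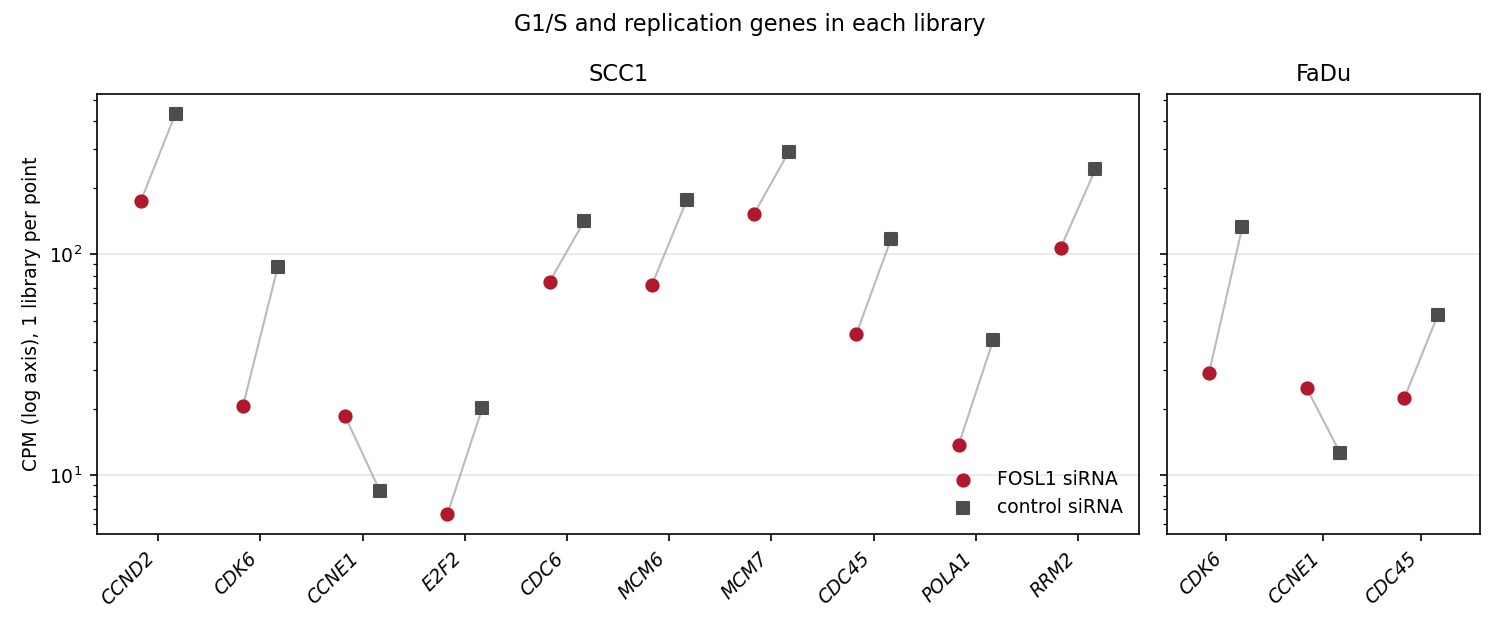
CPM on a log axis for the listed genes of the 10, with FOSL1 siRNA as circles and control siRNA as squares, 1 library per point and lines joining the libraries of a gene. In SCC1 the circle lies below the square for 9 genes and above it for CCNE1. In FaDu it lies below for CDK6 and CDC45 and above for CCNE1. CDC6 and MCM7 in SCC1 turn sign when the median of listed genes is set to 0.

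Many replication genes are known E2F targets, and the promoters of the 10 genes were searched for E2F words. RefSeq windows of build GRCh38.p14, from 250 bases before to 50 bases after the start, were found for 9 of the 10 genes (15 windows, since some genes have several starts). CCND2 had no window. The words TTTGGCGC, TTTCCCGC, TTTCGCGC and TTTGCCGC were searched on both strands. At least 1 of them was in a window of 5 of the 9 genes: MCM6, MCM7, CDC6, POLA1 and E2F2. That is 55.6% of the genes with a window, against 3.99% of all 27305 genes with one. The 10 were picked by name as G1/S and replication genes, so nothing is read from that difference. Over the 8 role lists described below, which hold the 10, the share was 37.2% (35 of 94). By window it is 5 of 15 for the 10 genes, or 33.3%, against 26.9% for the role lists and 3.31% of all 35116 windows. The parts of these 5 windows from 200 bases before to 30 bases after the start are shown 5′ to 3′ on the gene's own strand, with matched letters in capitals, because they show where the words lie in 5 of the 9 genes that were lower in SCC1 before the median of listed genes is set to 0, which turns CDC6 and MCM7.
MCM6, chr2:135876414-135876643, minus strand: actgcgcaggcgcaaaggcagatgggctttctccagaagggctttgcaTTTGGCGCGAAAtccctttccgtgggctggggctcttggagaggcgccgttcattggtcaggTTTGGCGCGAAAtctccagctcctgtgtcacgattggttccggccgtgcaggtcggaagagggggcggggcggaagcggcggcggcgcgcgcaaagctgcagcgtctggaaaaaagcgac
MCM7, chr7:100101368-100101597, minus strand: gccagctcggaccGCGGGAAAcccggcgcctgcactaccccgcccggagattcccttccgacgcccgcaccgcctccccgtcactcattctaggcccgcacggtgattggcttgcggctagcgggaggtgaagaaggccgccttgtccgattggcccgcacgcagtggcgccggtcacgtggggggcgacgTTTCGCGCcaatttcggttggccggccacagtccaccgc
CDC6, chr17:40287679-40287908, plus strand: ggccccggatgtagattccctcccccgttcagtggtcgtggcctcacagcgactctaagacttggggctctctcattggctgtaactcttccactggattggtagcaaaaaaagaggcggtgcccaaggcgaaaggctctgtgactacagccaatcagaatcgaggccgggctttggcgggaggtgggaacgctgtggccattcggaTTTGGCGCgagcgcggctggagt
POLA1, chrX:24693718-24693947, plus strand: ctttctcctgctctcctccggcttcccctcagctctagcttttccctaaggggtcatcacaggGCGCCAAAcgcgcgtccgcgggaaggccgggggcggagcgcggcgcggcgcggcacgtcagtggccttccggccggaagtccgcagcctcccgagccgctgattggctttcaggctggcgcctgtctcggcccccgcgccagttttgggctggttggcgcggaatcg
E2F2, chr1:23531204-23531433, minus strand: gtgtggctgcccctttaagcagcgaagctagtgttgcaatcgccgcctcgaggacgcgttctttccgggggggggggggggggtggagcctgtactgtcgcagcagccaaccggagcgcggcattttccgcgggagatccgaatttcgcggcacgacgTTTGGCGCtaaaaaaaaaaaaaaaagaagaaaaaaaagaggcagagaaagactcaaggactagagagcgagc
MCM6 holds the same 12 letters, TTTGGCGCGAAA, at 2 places, and each is a pair of overlapping matches on opposite strands. The first copy spans positions -152 to -141 and the second -90 to -79 from the start. MCM7 has a match at -187 to -180 and another at -9 to -2, the second sharing 1 base with a CCAAT. CDC6 has its match just after the start, at 8 to 15, POLA1 at -137 to -130 and E2F2 at -42 to -35. A match is a description of letters, not a bound site. No window of CDK6, CCNE1, CDC45 or RRM2 held these words, which says only that these letters are not there.

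**Figure D2:**
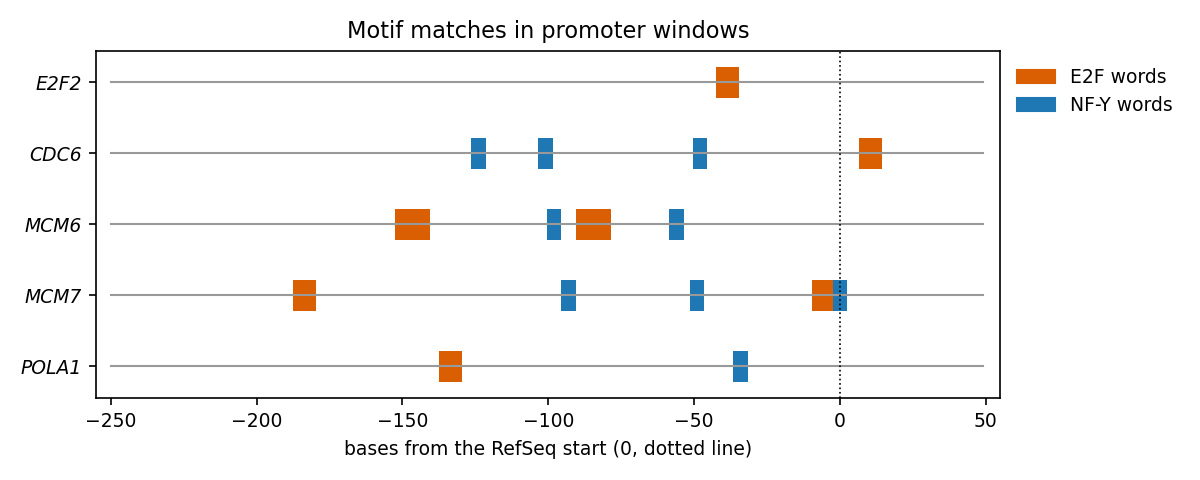
Positions of the E2F words (orange) and of the NF-Y word CCAAT (blue) on either strand, in bases from the RefSeq start, for the 5 genes with an E2F word. MCM6 and MCM7 have 2 separate E2F stretches each, and E2F2 has no CCAAT match.

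The NF-Y word CCAAT was in a window of 6 of the 9 genes on either strand, or 66.7%, against 39.7% of all genes with a window. The share was 52.1% over the 8 role lists and 76.7% over the G2/M list described below. The AP-1 word TGANTCA was in 0 of their 15 windows, against 7.71% of all windows and 3.08% of those of the role lists. At such shares 15 windows are too few to read anything from the 0. The word TTTGAA, known as CHR in promoters of G2/M genes, was also in 0 of the 15 windows, against 15.2% of all windows and 9.23% of those of the role lists. Here too the 15 windows, some of them from the same gene, are too few to read anything from the 0. Over the 8 role lists of G1/S and replication genes described below, 52.2% of the genes lower in SCC1 that had a window held an E2F word (12 of 23), as did 33.3% of those not listed in SCC1 (23 of 69). The 12 include the 5 genes shown above, which were picked by name. The same share was 8.61% for all genes lower in SCC1 and 3.46% for all genes higher in SCC1. These shares are given without a test.

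CDK6 and CCND2 encode a kinase and a cyclin of the same G1 complex. CDK6 had 232 reads (20.6 CPM) with FOSL1 siRNA and 1156 reads (87.3 CPM) with control siRNA in SCC1, 4.24-fold lower (3.68 to 4.91). In FaDu it had 300 reads (28.9 CPM) with FOSL1 siRNA and 1518 reads (132 CPM) with control siRNA, 4.57-fold lower (4.03 to 5.19). The intervals of the 2 lines overlap, and CDK6 was the gene of the 10 with the largest fold in each line, ranking 175 of 1130 lower genes in SCC1 and 139 of 889 in FaDu. Its FDR in the authors' deposited table was 0.00183 for SCC1 and 0.000883 for FaDu. CCND2 had 1960 reads (174 CPM) with FOSL1 siRNA and 5742 reads (434 CPM) with control siRNA in SCC1, 2.5-fold lower (2.37 to 2.63). It had the most reads of the 10 in both SCC1 libraries, and its FDR was 0.0876 in the authors' deposited table. The annotation GENCODE 29 places a second gene model on the same strand over 15.3% of the exon bases of CCND2. CCND2 was not in the FaDu table, and CCND1, CCND3 and CDK4 were in neither.

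CCNE1 encodes cyclin E1, the partner of CDK2 at the start of S phase, and was the gene that ran the other way. It had 208 reads (18.4 CPM) with FOSL1 siRNA and 112 reads (8.46 CPM) with control siRNA in SCC1, 2.18-fold higher (1.72 to 2.77). In FaDu it had 256 reads (24.7 CPM) with FOSL1 siRNA and 145 reads (12.6 CPM) with control siRNA, 1.95-fold higher (1.59 to 2.41). The direction was the same in both lines and the intervals overlap. In the authors' deposited table its FDR was 0.223 in SCC1 and 0.402 in FaDu, both above 0.05. CDC25A, the phosphatase that activates CDK2, was 1.91-fold higher in FaDu (1.70 to 2.14), at 80.9 CPM with FOSL1 siRNA and 42.4 CPM with control siRNA, and was not listed in SCC1. CCNE2 and CDK2 were in neither table.

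E2F2 encodes an E2F activator that RB binds. It had 75 reads (6.65 CPM) with FOSL1 siRNA and 265 reads (20.01 CPM) with control siRNA in SCC1, 3.01-fold lower (2.32 to 3.94). It had the fewest reads of the 10 with FOSL1 siRNA and the widest interval, and its FDR in the authors' deposited table was 0.0416. The other listed E2F gene was E2F8, an E2F repressor, 1.94-fold lower in SCC1 (1.61 to 2.33), whose sign turns when the median of listed genes is set to 0. No gene of the RB and E2F list was in the FaDu table.

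CDC6, MCM6 and MCM7 belong to origin licensing. CDC6, the loader of the MCM ring, had 847 reads (75.1 CPM) with FOSL1 siRNA and 1875 reads (142 CPM) with control siRNA in SCC1, 1.89-fold lower (1.74 to 2.05), with an FDR of 0.342 in the authors' deposited table. MCM6 had 818 reads (72.5 CPM) with FOSL1 siRNA and 2319 reads (175 CPM) with control siRNA, 2.42-fold lower (2.23 to 2.62), with an FDR of 0.11 in the authors' deposited table. MCM7 had 1718 reads (152 CPM) with FOSL1 siRNA and 3855 reads (291 CPM) with control siRNA, 1.91-fold lower (1.81 to 2.02), with an FDR of 0.319 in the authors' deposited table. MCM6 and MCM7 are subunits of the same ring, and their intervals do not overlap. These intervals cover counting error only, and a difference between MCM6 and MCM7 was not tested. MCM2, MCM3, MCM4 and MCM5 were in neither table. The exons of MCM7 share 7.58% of their bases with AP4M1 on the opposite strand, and the strand setting of the counting is not given in the sources used here. MCM8, a related helicase known for its role in recombination, was listed in both lines. It was 2.72-fold lower (2.36 to 3.13) in SCC1, and in FaDu it was 2.23-fold lower (1.93 to 2.58). ORC3, a subunit of the origin recognition complex, was 2.03-fold lower in FaDu (1.70 to 2.44).

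CDC45, the helicase cofactor that joins the MCM ring with GINS, was lower in both lines. It had 490 reads (43.4 CPM) with FOSL1 siRNA and 1551 reads (117 CPM) with control siRNA in SCC1, 2.70-fold lower (2.43 to 2.99). In FaDu it had 232 reads (22.4 CPM) with FOSL1 siRNA and 607 reads (52.9 CPM) with control siRNA, 2.36-fold lower (2.03 to 2.76). The intervals overlap, while the FDR in the authors' deposited table was 0.0576 in SCC1 and 0.158 in FaDu. Among its partners, GINS2 was 2.02-fold lower in SCC1 (1.79 to 2.28), a sign that turns on setting the median of listed genes to 0, and GINS4 was 2.53-fold lower in FaDu (2.14 to 3.01). CDC7, the kinase that acts on the MCM ring, was 2.10-fold lower in SCC1 (1.81 to 2.44), and WDHD1, which ties polymerase alpha to the helicase, was 2.39-fold lower there (2.16 to 2.65). GINS4 is uncertain, since 23.6% of its exon bases lie under models of the opposite strand.

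POLA1 encodes the catalytic subunit of DNA polymerase alpha. It had 154 reads (13.7 CPM) with FOSL1 siRNA and 541 reads (40.9 CPM) with control siRNA in SCC1, 2.99-fold lower (2.50 to 3.60), with an FDR of 0.0335 in the authors' deposited table. POLA2, the accessory subunit of the same enzyme, had 166 reads with FOSL1 siRNA and 560 reads with control siRNA in SCC1, 2.87-fold lower (2.41 to 3.44), and was 2.66-fold lower in FaDu (2.18 to 3.25), where POLA1 was not listed. The intervals of POLA1 and POLA2 overlap in SCC1. Another gene model on the same strand covers 53.7% of the exon bases of POLA2 in GENCODE 29, so its reads are less certain. PRIM1 and PRIM2, the primase subunits, were in neither table. The other polymerase genes listed in SCC1 were POLE2, 2.23-fold lower (1.79 to 2.78), POLE3, 1.98-fold lower (1.85 to 2.13), and POLD4, 1.98-fold lower (1.62 to 2.43), and the sign of POLE3 and POLD4 turns on setting the median of listed genes to 0. POLD4 shares 33.1% of its exon bases with a model on its own strand.

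RRM2, the small subunit of ribonucleotide reductase, had 1208 reads (107 CPM) with FOSL1 siRNA and 3208 reads (242 CPM) with control siRNA in SCC1, 2.26-fold lower (2.12 to 2.42). Its FDR in the authors' deposited table was 0.151. GENCODE 29 has 3 symbols named as pseudogenes of RRM2, and another model on its strand covers 27.9% of its exon bases, so its reads could be divided among copies. Its partner RRM1 was in neither table. Of the other nucleotide genes, CTPS1 was 2.28-fold lower (2.06 to 2.54) and TYMS 2.05-fold lower (1.88 to 2.25) in SCC1, and CAD, the first enzyme of pyrimidine synthesis, was lower in both lines, 1.96-fold (1.83 to 2.11) in SCC1 and 1.89-fold (1.74 to 2.06) in FaDu, where setting the median of listed genes to 0 turns CAD in both lines and TYMS in SCC1. TYMS shares 64.6% of its exon bases with genes of the opposite strand and is uncertain for that reason.

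Levels of different genes were set side by side per kilobase of exon (GENCODE 29, all exons of the basic set). With FOSL1 siRNA in SCC1 the highest of the 10 was MCM7, at 41.7 CPM per kb, followed by RRM2 at 27.7 and CCND2 at 26.8 CPM per kb. With control siRNA MCM7 also led, at 79.7 CPM per kb, with CCND2 at 66.9 and RRM2 at 62.8 CPM per kb. E2F2 was the lowest in both libraries, at 1.28 CPM per kb with FOSL1 siRNA and 3.86 CPM per kb with control siRNA. The order of CDK6 and CCNE1 differed between the libraries: CDK6 was at 1.75 and CCNE1 at 8.87 CPM per kb with FOSL1 siRNA, and CDK6 was at 7.44 and CCNE1 at 4.07 CPM per kb with control siRNA. The same exchange was seen in FaDu, where CDK6 was at 2.47 and CCNE1 at 11.9 CPM per kb with FOSL1 siRNA, and CDK6 was at 11.3 and CCNE1 at 6.08 CPM per kb with control siRNA. CDK6 has long exons in the annotation, 11.7 kb in all, and a transcript that uses fewer of them would have a higher level than given.

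**Figure D3:**
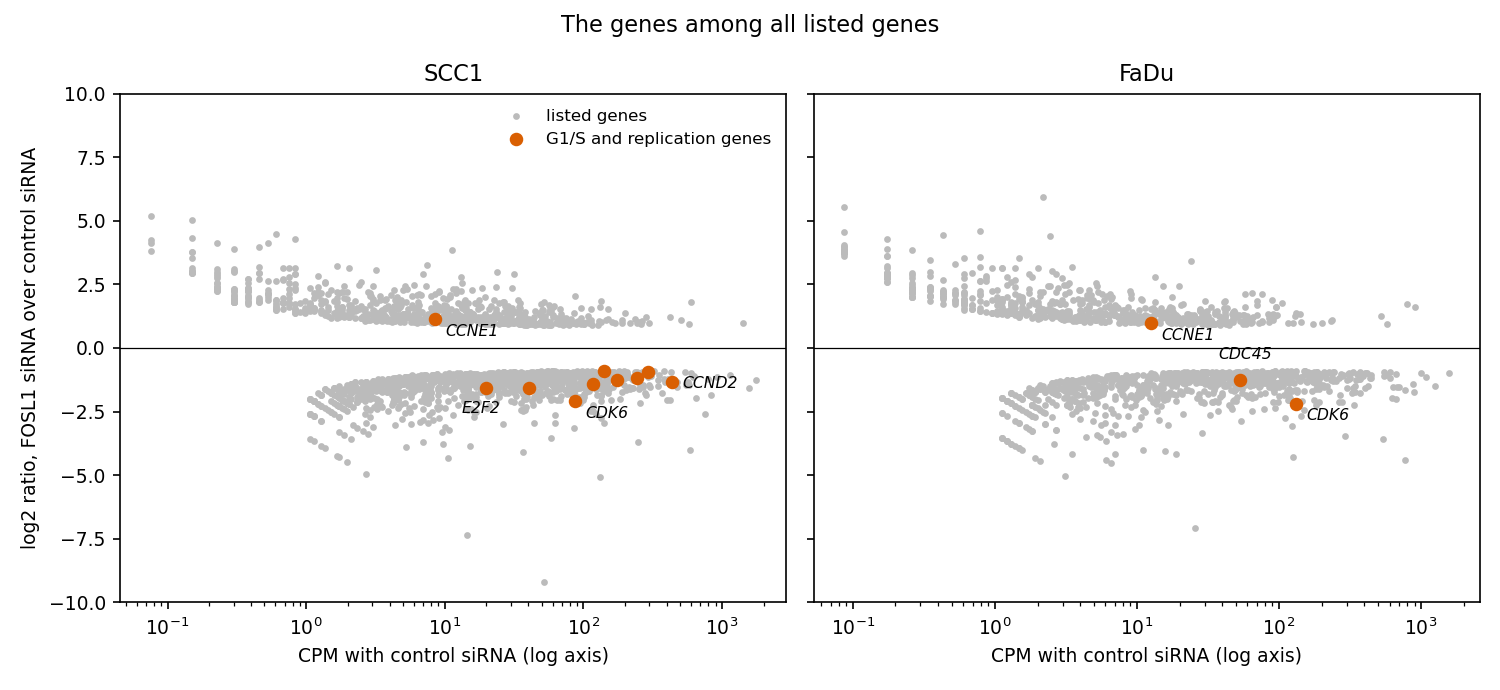
log2 ratio of FOSL1 siRNA over control siRNA against CPM with control siRNA (log axis) for each listed gene (grey) and for the 10 genes (orange). Genes at 0 reads in 1 library (32 in SCC1, 36 in FaDu) are not drawn. The empty band around 0 is the range that the tables do not list, and 8 of the 9 lower genes in SCC1 lie above a log2 ratio of -2, with CDK6 at -2.09.

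The 8 lists by role, with 111 genes in all, place the 10 genes among the rest of the pathway. They hold the 10 and were chosen with earlier results known, and they are described without a test. In SCC1, 25 of the 111 were lower, 2 were higher and 84 were not listed, which setting the median of listed genes to 0 brings to 2 lower and 2 higher by at least 1.5-fold, with the sign of 9 genes turned. That is 24.3% listed, against the 13.8% of all tested genes, and without the 10 genes it is 17 of 101, or 16.8%. The median log2 ratio of the 27 listed genes was -1.16, and that of all listed genes was -1.05. Setting the latter to 0 over all 1903 genes listed in SCC1 leaves 366 lower and 773 higher by at least 1.5-fold, with 178 signs turned. In FaDu, 9 were lower, 3 higher and 99 not listed, or 1 lower and 3 higher by at least 1.5-fold with the median of listed genes set to 0. Over all 1545 genes listed in FaDu that setting leaves 342 lower and 656 higher by the same size, with 116 signs turned. The 12 listed genes had a median log2 ratio of -0.997, and all genes listed in FaDu one of -1.01. The FaDu share is 10.8%, against the 11.2% of tested genes that the authors listed there (6.44% lower and 4.76% higher). Without the 10 genes it is 8.91% of 101 genes. Of the 10 genes, CDK6 and CDC45 were among the 9 and CCNE1 among the 3, and CDK6 was the only listed gene of the 111 in FaDu with an FDR under 0.05 in the authors' deposited table. Of all tested genes 1.6% were lower and 1.25% higher at that FDR in FaDu, 2.85% in all. CDK6 and CDC45 were at least 2-fold lower in FaDu and CCNE1 was not 2-fold higher, sizes that 5.71% and 4.45% of the tested genes reached on the lower and the higher side, 10.2% in all.

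By role, 5 of 12 polymerase and primase genes (41.7%) were listed in SCC1, all of them lower before the median of listed genes is set to 0. So were 4 of 13 helicase activation genes, 4 of 13 nucleotide genes (30.8% each) and 4 of 18 licensing genes (22.2%). The same held for 3 of 18 clamp, fork and ligation genes (16.7%) and 2 of 17 RB and E2F genes (11.8%). Of all tested genes 13.8% were listed in SCC1 and 8.19% were lower. The role lists hold genes picked by name from the tables, so nothing is read from these shares. The 3 fork genes were RFC4, a clamp loader subunit, 2.24-fold lower (1.96 to 2.57), and the fork protection partners TIPIN, 2.17-fold lower (1.77 to 2.68), and TIMELESS, 1.97-fold lower (1.78 to 2.18). TIMELESS changes sign on setting the median of listed genes to 0. In FaDu the listed genes of this role were TIPIN, 1.96-fold lower (1.60 to 2.42), and RNASEH2A, a subunit of ribonuclease H2, 1.95-fold lower (1.69 to 2.27), and the same setting turns both. Of 13 G1 cyclin and kinase genes, 2 were lower and 1 was higher in SCC1, and 1 was lower and 2 were higher in FaDu. That is 23.1% listed in each line, against 13.8% of tested genes in SCC1 and 11.2% in FaDu.

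The CDK inhibitors, which hold the G1 kinases in check, differed in direction from gene to gene. CDKN2B, encoding p15, had 484 reads (42.9 CPM) with FOSL1 siRNA and 175 reads (13.2 CPM) with control siRNA in SCC1, 3.25-fold higher (2.73 to 3.88), with an FDR of 0.0184 in the authors' deposited table. CDKN2C, encoding p18, had 34 reads (3.01 CPM) with FOSL1 siRNA and 130 reads (9.82 CPM) with control siRNA, 3.26-fold lower (2.22 to 4.90), with an FDR of 0.0417 in the authors' deposited table. In FaDu the listed inhibitor was CDKN2D, encoding p19, 2.18-fold higher (1.72 to 2.78) at 20.4 CPM with FOSL1 siRNA and 9.32 CPM with control siRNA. CDKN1A, CDKN1B and CDKN2A were in neither table.

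**Figure D4:**
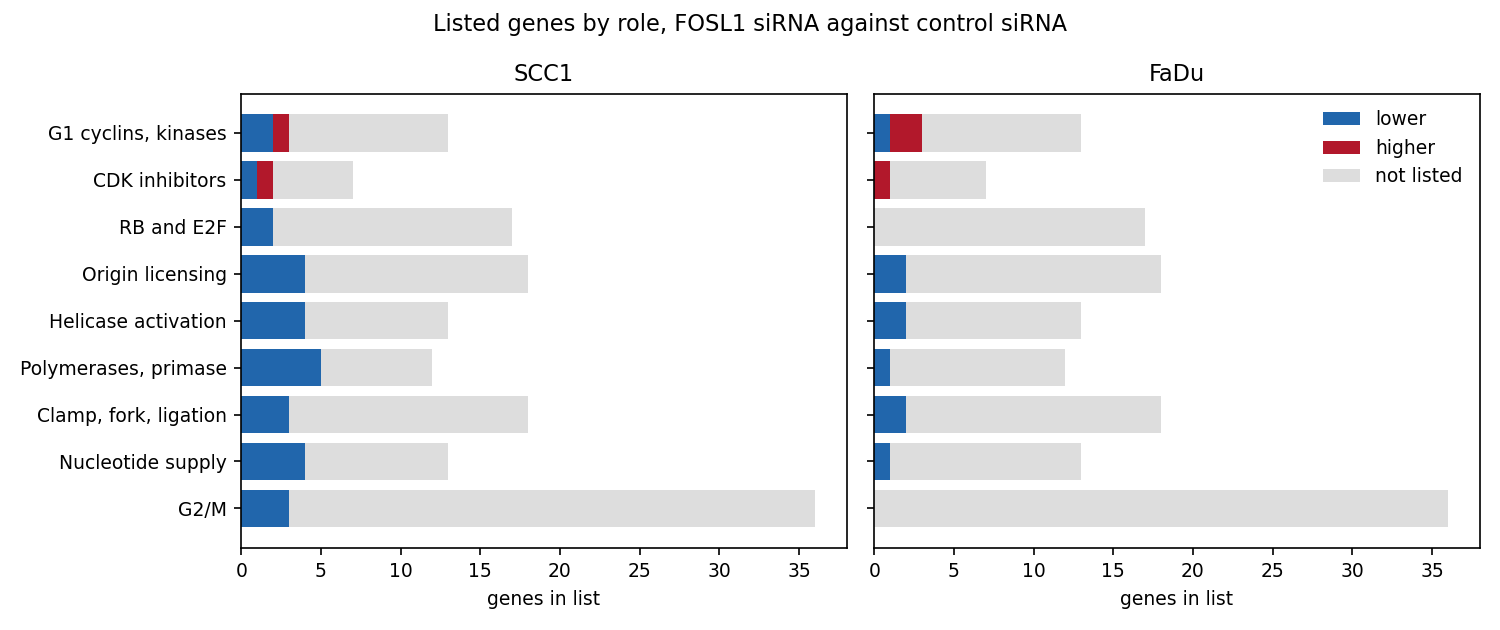
Number of genes per role list that were lower (blue), higher (red) or not listed (grey) with FOSL1 siRNA in SCC1 and FaDu. The role lists include the 10 genes picked by name. Polymerases, POLA1 among them, have the largest listed share in SCC1, 5 of 12, and the G2/M list has 3 of 36 in SCC1 and 0 of 36 in FaDu. Of all tested genes 13.8% were listed in SCC1 and 11.2% in FaDu. With the median of listed genes set to 0, the lower genes of the 8 G1/S lists drop to 2 in SCC1 and 1 in FaDu. Over all listed genes the lower ones drop from 1130 to 366 in SCC1 and from 889 to 342 in FaDu.

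A list of 36 G2/M genes, which act after replication, was counted beside these. Its share depends on which genes were chosen, and G2/M genes outside it were not counted. In SCC1 3 of the 36 were lower and 0 higher, or 8.33%, against 8.19% of all tested genes that were lower and 13.8% that were listed. Among the 3 was ANLN, the cytokinesis scaffold anillin, 2.09-fold lower (1.98 to 2.203). TOP2A had 299 CPM with FOSL1 siRNA and 596 CPM with control siRNA, and DLGAP5 had 61.4 CPM with FOSL1 siRNA and 127 CPM with control siRNA, and setting the median of listed genes to 0 turns the sign of both. In FaDu 0 of the 36 were listed. MKI67, CCNB1 and CDK1 were in neither table, and a difference under 1.88-fold in them would not show.

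Genes of the 8 role lists in both tables numbered 7: CDK6, CDC45, CCNE1, POLA2, MCM8, TIPIN and CAD. They are 25.9% of the 27 listed in SCC1 and 58.3% of the 12 listed in FaDu, and over all listed genes the shared ones are 35.6% of SCC1 and 43.9% of FaDu. The intervals of the 2 lines overlapped for each of the 7. Overlap was not counted over the 678 shared genes, so nothing is read from it. All 7 had the same direction in both lines, as did 655 of the 678 shared genes. CAD in both lines and TIPIN in FaDu lose that direction when the median of listed genes is set to 0. The other 7 of the 10 genes, CCND2, E2F2, CDC6, MCM6, MCM7, POLA1 and RRM2, were listed in SCC1 and not in FaDu. The difference between the lines was not tested for them. The authors' p-values and FDR imply up to 94 genes in FaDu and 100 in SCC1 that passed their p-value threshold but are not listed. Those genes have no values here, so none of the 7 is called unchanged in FaDu.

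**Figure D5:**
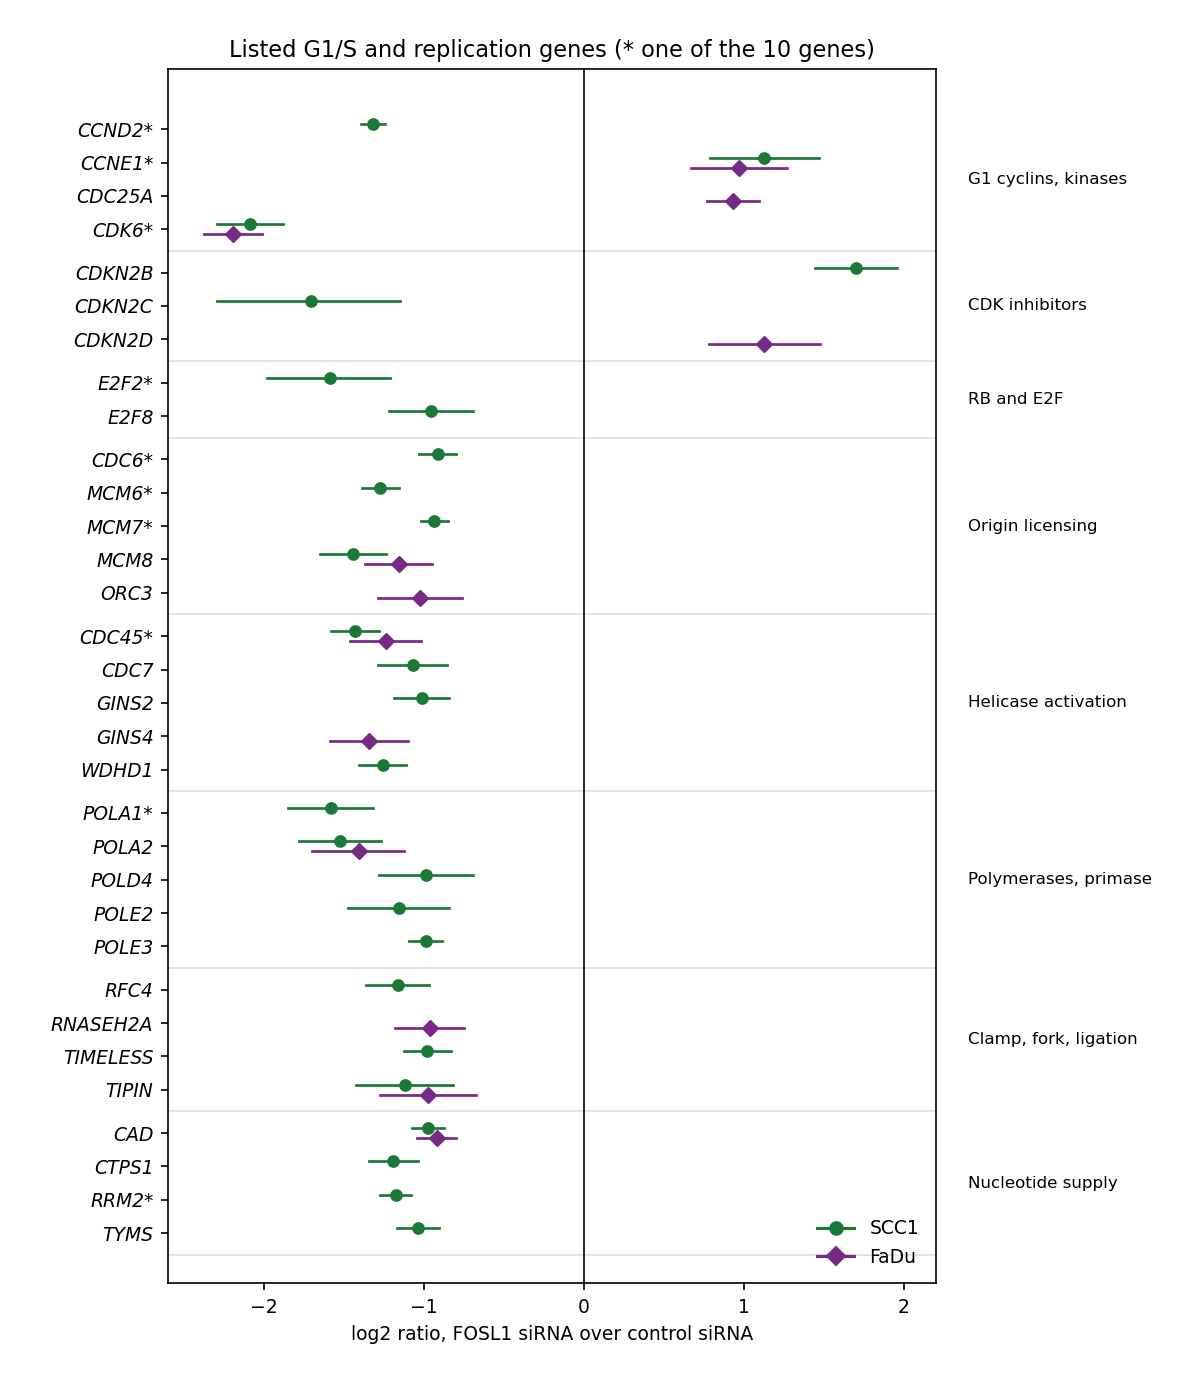
log2 ratio of FOSL1 siRNA over control siRNA for each listed gene of the 8 role lists, in SCC1 (circles) and FaDu (diamonds), with 95% exact binomial intervals as bars. The intervals of the 2 lines overlap for the 7 genes with a point from each line, which was not counted over all shared genes. CCNE1, CDC25A, CDKN2B and CDKN2D lie to the right of 0. Genes closer to 0 than -1.05 in SCC1 or -1.01 in FaDu on the lower side turn sign with the median of listed genes set to 0.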

How the data were processed

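Total RNA of the 4 groups went into KAPA RNA-Seq libraries, per the labels' protocols. TopHat, Cufflinks and build hg18 are named per the submitters' processing notes. The sources used here give neither their roles, nor the counter, nor whether counting used strand. The authors deposited 1 table per line with CPM per library, a score (a linear fold whose sign is negative for genes lower with FOSL1 siRNA), a p-value and an FDR, per the file headers. The tables hold genes with a p-value under 0.05, deposited by the authors.

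In each library 100% of CPM values lay within 0.01 step of a whole number of reads, so reads were recovered by dividing by the step. In edgeR 4.0.16 (R 4.3.3), the likelihood ratio test on those reads at an assumed dispersion of 0.05 gave p-values within 1% of the authors' for each of the 1903 SCC1 and 1545 FaDu genes, and called 515 and 389 at an FDR under 0.05 over 13796 genes. That test compares 2 libraries, not conditions. The authors' FDR divided by their p-value gave the number of genes they tested.

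Ratios had no pseudocount, and a fold of 1.5 counted as a difference. The members and the lists by role were chosen with earlier results of these data known. Named genes are the 10, FOSL1 and the listed genes of the role lists, with some unlisted partners and list markers named as such. Older symbols added 0 genes. Promoter sequences are from RefSeq, build GRCh38.p14, and exon lengths and overlaps from GENCODE 29. Read recovery, intervals and the count test were tested on simulated data. The alternatives tried were pseudocounts of 1 and 0.1 CPM, a fold of 2, at least 10 CPM in 1 library and an FDR under 0.05. Further ones were scaling to the median of listed genes, older symbols and, chosen after seeing the data, the count test at other dispersions. Summed rows were also planned, but no symbol was repeated. Software was Python 3.11.15 with SciPy 1.17.1, numpy 2.4.6, matplotlib 3.10.9 and pandas 2.3.3.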

Additional observations from a re-analysis of the deposited data

How the results depend on the processing

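Pseudocounts of 1 and 0.1 CPM kept all 13 ratios of the 10 genes (10 in SCC1, 3 in FaDu) within their counting intervals. Asking for 10 CPM in 1 library left the counts of the 10 genes at 9 lower and 1 higher in SCC1 and 2 lower and 1 higher in FaDu. It could not do otherwise, since each listed gene of the 10 had that level. No symbol was repeated within a line, so summing rows of the same symbol had nothing to change. A fold of 2 left 0 of the 10 genes higher in FaDu, and 1 of 111 list genes higher there against 3. An authors' FDR under 0.05 left 3 lower and 0 higher of the 10 in SCC1 and 1 lower and 0 higher in FaDu, and of the list genes 5 lower and 1 higher in SCC1 and 1 lower and 0 higher in FaDu. Setting the median log2 ratio of listed genes to 0 left 1 lower gene of the 10 in each line, and 2 lower list genes in SCC1 and 1 in FaDu. Over all listed genes it left 366 lower in SCC1 and 342 in FaDu. It turned the log2 ratio of CDC6 to 0.14 and that of MCM7 to 0.12 in SCC1, and by construction it can remove lower genes only. Listed genes all had a p-value under 0.05 from the authors, so a dispersion of 0.01 or 0.05 was no check. At those settings the edgeR test on the recovered reads had to put each listed gene, of the 10 or not, under an unadjusted p of 0.05. At a dispersion of 0.16 it put 1 lower and 0 higher there in SCC1 and 1 lower and 0 higher in FaDu, and 483 of 1903 and 461 of 1545 listed genes. No paired analysis within a line was possible because each group had 1 library. A fit over both lines with line as a block was not run, and 3 of the 10 genes have values in all 4 libraries.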

Other observations

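Other cyclin and CDK genes by symbol, chosen after their values were seen, were also in the tables. CCNK, the cyclin partner of the transcriptional kinases CDK12 and CDK13, had 423 reads (37.5 CPM) with FOSL1 siRNA and 1283 reads (96.9 CPM) with control siRNA in SCC1, 2.58-fold lower (2.31 to 2.89). In FaDu it had 219 reads (21.1 CPM) with FOSL1 siRNA and 849 reads (74.0 CPM) with control siRNA, 3.50-fold lower (3.01 to 4.08), and its FDR in the authors' deposited table was 0.0769 for SCC1 and 0.0106 for FaDu. In SCC1 CCNG1, a p53 target, was 2.38-fold higher (2.11 to 2.69) and CCNG2, a cyclin linked to cell cycle exit, was 2.35-fold higher (2.06 to 2.69). CDK14 was 2.47-fold lower (1.76 to 3.51) in SCC1, and CDK3, with 9 reads with FOSL1 siRNA and 28 with control siRNA, had a ratio of 0.377 (0.157 to 0.822). CCNJ was 2.84-fold higher in FaDu (2.35 to 3.44), at 38.1 CPM with FOSL1 siRNA and 13.4 CPM with control siRNA.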
